A study of Mus musculus with 18 samples.

Results

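The genes that encode the proteins of the cytosolic ribosome were examined in the granule cell layer of the ventral dentate gyrus. They were chosen by symbol: names built on Rpl or Rps and a number, with the suffixes a, x, l and y, plus Rplp0, Rplp1, Rplp2 and Rpsa, leaving out pseudogene and Rps6k symbols. The rule found 85 genes among the 34620 listed, and 82 of these were among the 17421 genes with enough reads to be tested. By name, 49 belong to the large subunit, 33 to the small subunit and 3 to the stalk. Of the 3 members not tested, Rpl10l had no read in any library, Rpl39l had between 0 and 2 reads per library and Rpl3l had between 2 and 16. These are the germline or muscle counterparts of Rpl10, Rpl39 and Rpl3.

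The 6 RNA-Seq libraries came from adult Swiss Webster males aged 8 to 12 weeks, 2 libraries in each of 3 groups. WT males had mothers and grandmothers labelled WT and were bred as a lineage of their own. F1 males were genetically WT sons whose mothers had 1 functional copy of the serotonin 1A receptor gene (5-HT1A-R, maternal genotype 5HT1A-/+), so that F1 males, like WT males, did not carry the null allele. By the paper's methods they came from crosses between heterozygotes. Their fathers were thus heterozygous too, and their littermates included heterozygous and null mice. F2 males were sons of F1 females and WT males, with maternal genotype WT and grandmaternal genotype 5HT1A-/+. The null allele was first made in 129SvEv cells and then moved to the outbred Swiss Webster strain, and the methylation samples of the same series were not analysed here. The number of animals behind a library is not given, so p-values measure the spread between these libraries only.

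Each cytosolic ribosome joins a small subunit, which reads the mRNA, with a large subunit, which links amino acids. Most of the proteins are needed in 1 copy per ribosome, and their mRNAs are among the most abundant of a cell. Most of these mRNAs begin with a 5′ terminal oligopyrimidine (TOP) tract, through which mTOR signalling sets how fast they are translated. In neurons, ribosomes also lie in dendrites, where local translation serves synaptic change. Ribosomal protein genes have left many processed copies in the mouse genome, some of which are nearly identical to the parent.

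Because reads were 50 bases long and were counted only where they aligned to a single place, the sequence of these copies decides which reads of a member could be counted. The stretches below show Rpl26 and Rpl7a, large subunit members that were lower in F1, each beside a nearly identical copy that was higher. Positions are counted from 1 at the A of the start codon, coordinates are mm9, and capitals mark the bases that differ within the pair.
Rpl26, coding bases 169 to 288: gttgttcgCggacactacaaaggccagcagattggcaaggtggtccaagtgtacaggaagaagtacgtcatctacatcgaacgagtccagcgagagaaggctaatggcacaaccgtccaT
Gm15772, chr5:3236599-3236718, plus strand: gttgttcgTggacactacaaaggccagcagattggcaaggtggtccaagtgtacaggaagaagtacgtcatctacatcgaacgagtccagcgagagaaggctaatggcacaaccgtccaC
Rpl7a, coding bases 664 to 783: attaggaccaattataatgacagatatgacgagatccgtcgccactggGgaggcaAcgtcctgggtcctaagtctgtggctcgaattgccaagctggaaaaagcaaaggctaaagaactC
Gm5619, chr9:85675488-85675607, minus strand: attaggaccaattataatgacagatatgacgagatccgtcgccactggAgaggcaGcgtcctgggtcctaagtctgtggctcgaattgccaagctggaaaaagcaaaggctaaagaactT
Gm15772, annotated as a pseudogene at chr5:3236389-3236907, differed from the 438 coding bases of Rpl26 at 2 places, C177T and T288C, both inside the stretch shown. Gm5619, a locus without introns at chr9:85675425-85676279 that is annotated as protein coding, differed from the 801 coding bases of Rpl7a at 8 places, of which G712A, A719G and C783T lie in the stretch shown. A read that covers none of these positions cannot be told from a read of the copy unless it reaches into an untranslated region.

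A second feature examined was the start of these genes. The windows below run from 20 bases before to 20 bases after the RefSeq start site (GRCm38.p6), and capitals mark the longest unbroken run of C and T that reaches within 10 bases of that site. They show long and short runs among members that are described below.
Rpl7a, chr2:26910787-26910826, plus strand: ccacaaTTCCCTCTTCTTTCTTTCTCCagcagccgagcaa
Rpl35a, chr16:33056462-33056501, plus strand: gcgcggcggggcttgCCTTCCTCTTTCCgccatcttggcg
Rps24, chr14:24490658-24490697, plus strand: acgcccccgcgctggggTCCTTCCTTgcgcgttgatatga
Rpl26, chr11:68901546-68901585, plus strand: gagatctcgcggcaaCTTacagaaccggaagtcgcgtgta
Rplp0, chr5:115559447-115559486, plus strand: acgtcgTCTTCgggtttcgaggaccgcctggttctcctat
The run was 21 bases in Rpl7a, 13 in Rpl35a and 9 in Rps24, but 3 in Rpl26 and 5 in Rplp0. These sites are annotated and were not mapped in this tissue, so a short run does not show that an mRNA lacks a TOP tract.

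Libraries held 26358165 to 33727936 reads assigned to genes, and the median tested member had between 3151 and 4253 reads, so that counting error was small beside the spread between libraries. That spread, as the common coefficient of variation of edgeR, was 10.6%. Reads set aside because they aligned to several places made up between 25.1% and 33.2% of everything tallied, gene counts and set-aside reads together. Their ratio to the counts on genes alone was therefore higher. Mitochondrial genes took between 5.60% and 8.59% of the counts on genes. The layer carried its defining marker, as Prox1, the transcription factor of granule neurons, had between 6897 and 9230 reads in each library.

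Members made up 1.15% and 1.19% of all gene counts in the WT libraries. They made up 1.10% and 0.966% in F1 and 1.11% and 1.14% in F2. All 4 values in F1 and F2 were below both WT values, and the lowest stood in F1 replicate 2. On the TMM scale of the CPM levels, this order did not hold, as the summed level of the members in F2 replicate 2, 11595 CPM, lay between the WT libraries at 11397 and 11776 CPM.

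Levels of single members spanned a wide range. Levels here are CPM, reads scaled by library size, divided by exon length in kb and averaged over the 6 libraries. Exon length is the union of the exons of all annotated transcripts of a gene. It was known for 81 tested members and not for Rpl41. The highest were Rplp1 of the stalk at 510 CPM per kb, Rpl4, which lines the tunnel through which the new chain leaves, at 428, and Rps15 of the small subunit at 385. The lowest were Rps4y2 at 7.11 CPM per kb and the paralogs Rps27l at 15.5 and Rpl7l1 at 16.3. The highest level was 71.7 times the lowest, while the middle 50% of members lay between 44.6 and 157 CPM per kb. In each of the 80 pairs of neighbours in this order, the ranges over the 6 libraries overlapped. The order is one of countable reads, since reads shared with copies were not counted.

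**Figure D1:**
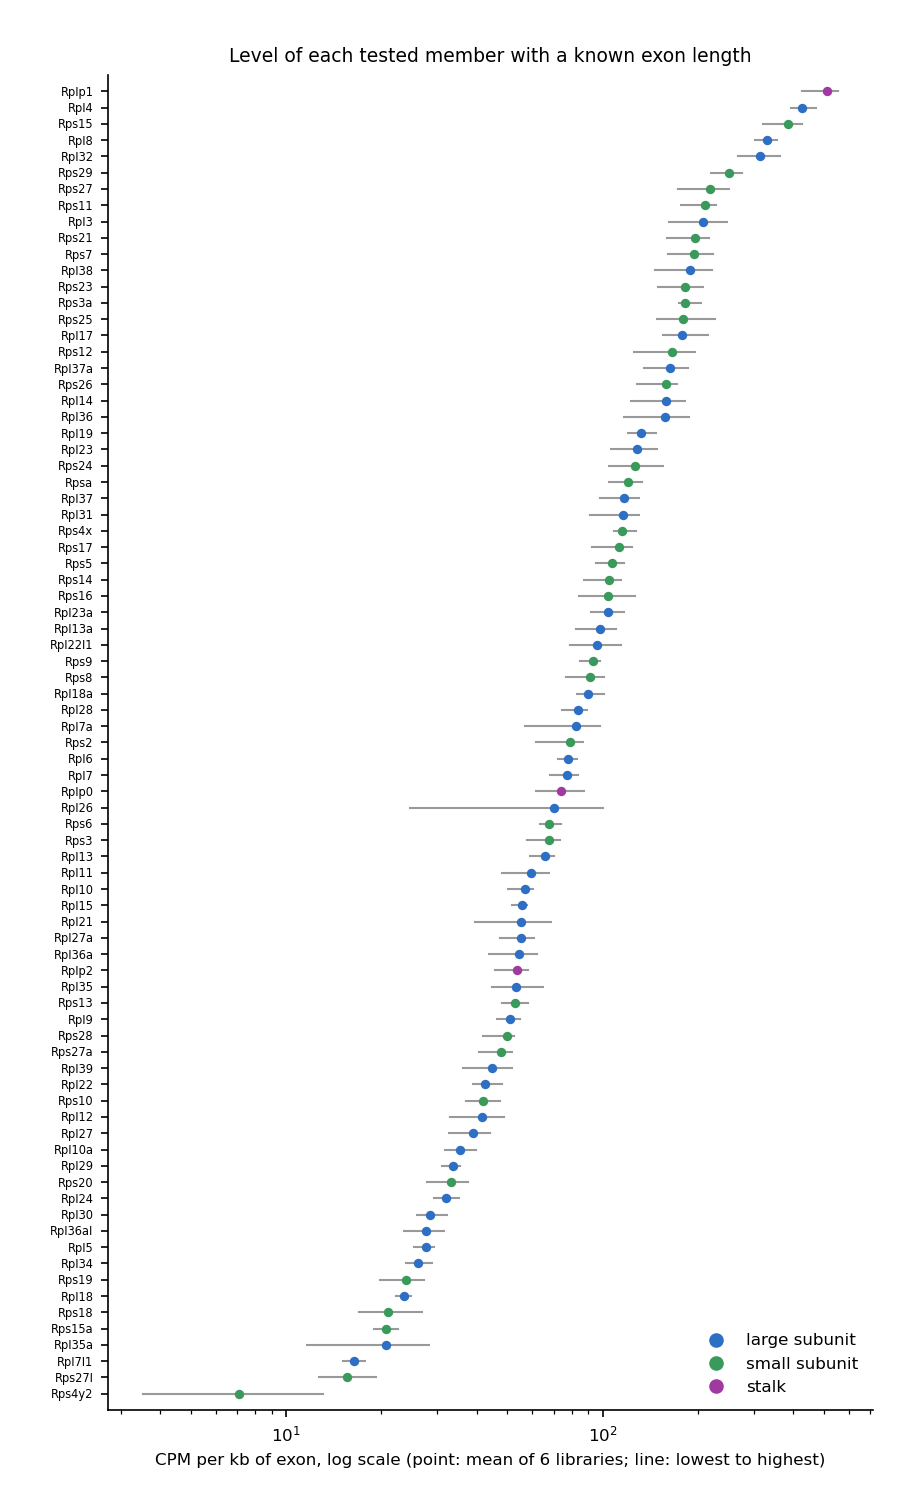
Level of each tested member with a known exon length, in CPM per kb of exon on a log axis; points are means of the 6 libraries and lines run from the lowest to the highest library. Rplp1 stands at the top at 510 CPM per kb and Rps4y2 at the bottom at 7.11, and neighbours overlap.

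Whether the genotype of the parents was accompanied by a change in these genes was asked first in F1. Most members were slightly lower in F1 than in WT: 70 of 82 had a negative log2 fold change, against 49.1% of all tested genes. The median log2 fold change of the members was -0.20, with the middle 50% from -0.30 to -0.074, while the median of all tested genes was 0.0094. By subunit, the median was -0.20 for 46 large subunit genes and -0.21 for 33 small subunit genes, and -0.14 for the 3 stalk genes. Single members seldom passed the test. At q under 0.01 by the exact test of edgeR, 5 members were lower, where 8.54% of all tested genes were, and 2 were higher, where 3.77% were. Neither count of the 82 members stands above the background. At an unadjusted p under 0.05, 28 members were lower, where 18.2% of all tested genes were, and 2 were higher, where 14.4% were.

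The size of the F1 shift differed between the 2 F1 libraries. Members in F1 replicate 1 had a median log2 deviation from the WT mean of -0.073, and those in F1 replicate 2 had -0.33. The median log2 difference of F1 replicate 1 minus F1 replicate 2 was 0.23 for members and 0.0057 for all tested genes. The next counts were made for members only. F1 replicate 2 was the lowest of all 6 libraries for 70 of the 82 members, and 76 members were lower in it than in F1 replicate 1. That library also had the smallest share of multiply aligned reads (25.1%), of reads outside annotated exons (9.18%) and of mitochondrial counts (5.60%); their part in the shift was not tested. Without F1 replicate 2 the median in F1 was -0.066, and without F1 replicate 1 it was -0.32. The number of members called in F1, 7 in all, was 2 without WT replicate 2 or without F1 replicate 2, 4 without any of WT replicate 1, F2 replicate 1 and F2 replicate 2, and 14 without F1 replicate 1. The quasi-likelihood test of edgeR called 1, Rps4y2. Rps4y2 passed in F1 under all 20 alternatives, and Rpl26 in 18, its call being lost in the quasi-likelihood test and in DESeq2.

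**Figure D2:**
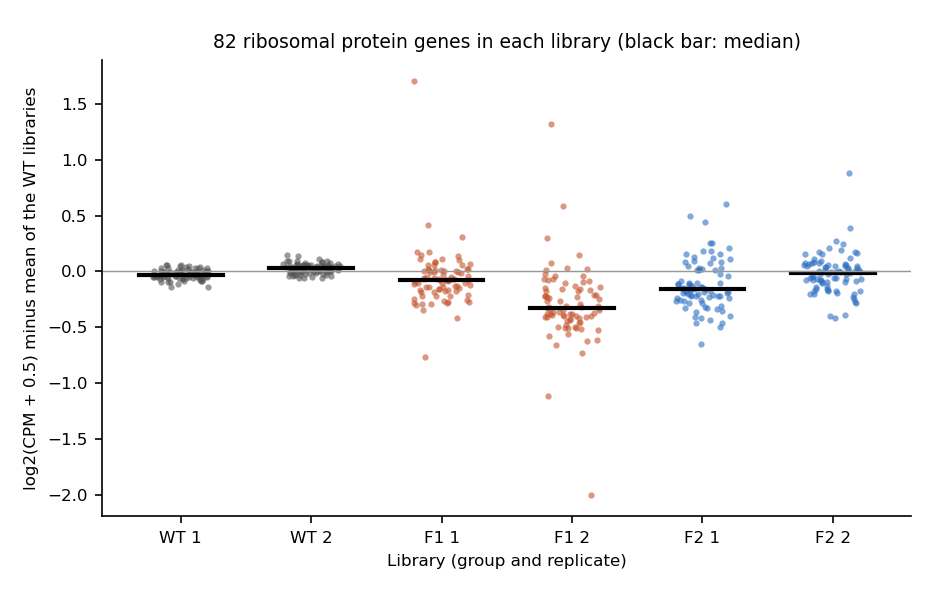
log2(CPM + 0.5) of the 82 tested members minus the mean of the WT libraries, by library; each point is a gene and black bars are medians. The median is -0.33 in F1 replicate 2, -0.16 in F2 replicate 1, -0.073 in F1 replicate 1 and -0.010 in F2 replicate 2.

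Rpl26 (chr11:68715085-68720491, mm9), a large subunit protein beside the mouth of the exit tunnel, was the member that fell most in F1. It stood at 143 and 144 CPM in WT, 84.2 and 35.5 CPM in F1, and 91.5 and 108 CPM in F2. The F1 libraries lay below all others but far apart, with a mean of 59.8 ± 34.5 CPM (SD, n = 2) against 144 ± 0.81 in WT. The log2 fold change in F1 was -1.27 ± 0.27 (SE; q = 8.10e-05), a loss of 58.4% of the WT level. In F2 it was -0.53 (q = 0.151), and F2 and F1 differed by 0.73 (q = 0.222).

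Rpl35a (chr16:33056539-33060275), a large subunit protein whose mutation causes Diamond-Blackfan anaemia in people, fell by 40.1% in F1. Its levels were 81.5 and 99.4 CPM in WT, 67.3 and 41.2 CPM in F1, and 66.4 and 82.2 CPM in F2. Both F1 libraries lay below both WT libraries, whereas F2 replicate 2 lay between them. Against WT this was a log2 fold change of -0.74 ± 0.20 in F1 (q = 0.00217) and -0.28 in F2 (q = 0.325). The F1 call was lost without WT replicate 2 (-0.58, q = 0.082) and without F1 replicate 2 (-0.42, q = 0.108).

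Rpl7a (chr2:26766284-26768838), a large subunit protein whose introns hold small nucleolar RNAs, stood at 161 and 175 CPM in WT, 138 and 101 CPM in F1, and 144 and 159 CPM in F2. All 4 F1 and F2 libraries were below both WT libraries. In F1 the log2 fold change was -0.49 ± 0.15 (q = 0.00693), and in F2 it was -0.15 (q = 0.519). The F1 call was lost without any of 5 libraries, all but F1 replicate 1, with q up to 0.226 for Rpl7a without F1 replicate 2.

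The remaining members that fell in F1 belong to the small subunit. Rps25 (chr9:44215797-44218488), which is needed for initiation at some viral internal entry sites, stood at 136 and 155 CPM in WT, 114 and 101 CPM in F1, and 110.0 and 119 CPM in F2. Rps24 (chr14:25309903-25315368), another Diamond-Blackfan gene, stood at 129 and 139 CPM in WT, 109 and 94.4 CPM in F1, and 104 and 111 CPM in F2. In both genes the 4 F1 and F2 libraries lay below both WT libraries. The log2 fold change of Rps25 was -0.43 ± 0.12 in F1 (q = 0.00542) and -0.34 in F2 (q = 0.0337). That of Rps24 was -0.40 ± 0.12 in F1 (q = 0.00907) and -0.32 in F2 (q = 0.0473). The F1 call of Rps25 was lost without any of 4 libraries (WT replicate 2, F1 replicate 2 and both of F2), with q up to 0.139. That of Rps24 was lost without any of 5 libraries, all but F1 replicate 1, with q up to 0.183.

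Rpl3 (chr15:79908211-79913836), which reaches close to the site of peptide bond formation, was the member that rose in both groups. It stood at 222 and 220 CPM in WT, 294 and 332 CPM in F1, and 336 and 289 CPM in F2. All 4 F1 and F2 libraries were above both WT libraries. The rise was 1.42-fold in F1, a log2 fold change of 0.50 ± 0.12 (q = 8.14e-04), and 0.50 on the log2 scale in F2 (q = 8.98e-04). Its call in F1 was lost without WT replicate 1, WT replicate 2 or F1 replicate 2 (q up to 0.0364). In F2 it was lost without WT replicate 1, WT replicate 2 or F2 replicate 1 (q up to 0.0921). Across all tested genes, 1.60% were higher in both comparisons and 6.07% lower in both; 1 member, Rpl3, was higher in both and none was lower in both. The 2 comparisons share the WT libraries.

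Rps4y2 (chr6:148303178-148304120) had the largest rise in F1. This low-level locus without introns, listed by RefSeq as Rps4l, is related to Rps4x. It had 113 and 100 reads in WT, 373 and 287 in F1, and 135 and 181 in F2, or 3.32 and 3.52 CPM, 12.3 and 9.29 CPM, and 5.05 and 6.72 CPM. The groups did not overlap and F2 lay between the others. In F1 it rose by 1.66 ± 0.24 on the log2 scale (q = 5.21e-10), or 3.16-fold, and 0.78 in F2 (q = 0.0123). Between F2 and F1 it was -0.88 (q = 0.0189). Its parent-like paralog Rps4x, on the X chromosome, had log2 fold changes of -0.011 in F1 and 0.14 in F2.

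**Figure D3:**
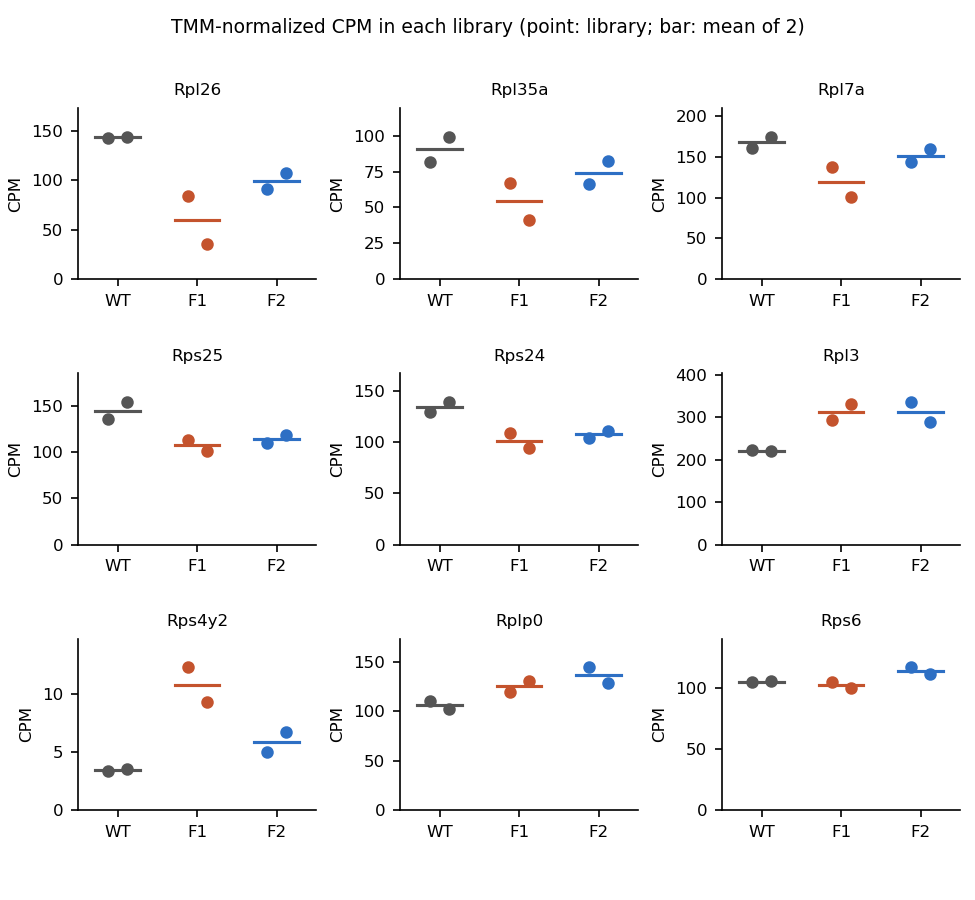
CPM of the 7 members called in F1 and of Rplp0 and Rps6 in each library (points), with the group mean as a line; each axis starts at 0. Rpl26 falls from 144 CPM in WT to 59.8 in F1 with the F1 libraries far apart, and Rpl3 is above WT in all 4 F1 and F2 libraries.

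In F2 the members lay closer to WT. A negative log2 fold change was found for 57 of 82, against 50% of all tested genes, and the median was -0.098 (-0.12 for the large subunit, -0.091 for the small subunit and -0.044 for the stalk). Rpl3 alone passed the test; 3.86% of all tested genes were higher in F2 and 8.10% lower. No member was lower at q under 0.01 by the exact or the quasi-likelihood test. At q under 0.05 by the exact test, 3 were lower, where 12.5% of all tested genes were, and at an unadjusted p under 0.05, 9 were, where 17.8% were; both counts lie below the background. The F2 libraries also differed, with median deviations of -0.16 in replicate 1 and -0.010 in replicate 2. Without F2 replicate 1 the median was -0.0058 and no member was called, and without F2 replicate 2 it was -0.15. No member was called either without WT replicate 1 or without WT replicate 2, and 4 were called without F1 replicate 1 or without F1 replicate 2. Rps18 of the small subunit, chosen after its values were seen, came nearest to the threshold among those lower in both groups, with log2 fold changes of -0.42 in F1 (q = 0.0117) and -0.43 in F2 (q = 0.0108).

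Set directly against F1, F2 was higher for 74 of 82 members and lower for 8, where 50.2% of all tested genes were lower, and the median log2 difference was 0.11. No member passed the exact test, where 0.740% of all tested genes did. At an unadjusted p under 0.05, 5 members were higher and 1 lower by the exact test, where 4.41% and 4.23% of all tested genes were. By the quasi-likelihood test, 7 were higher and 1 lower, where 4.56% and 4.45% were. Without F1 replicate 1, 2 members passed, Rpl26 and Rpl35a, both higher in F2. Without F1 replicate 2, 1 passed, Rps4y2, lower in F2, and the median was -0.0091.

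Over all 6 libraries, 31 members, 17 of the large and 14 of the small subunit, had all 4 F1 and F2 values below both WT values. Among all tested genes, 23.7% had this order. In the opposite direction there were 5 members, Rpl3, Rpl4, Rpl30, Rplp0 and Rps4y2, against 21.0% of all tested genes.

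**Figure D4:**
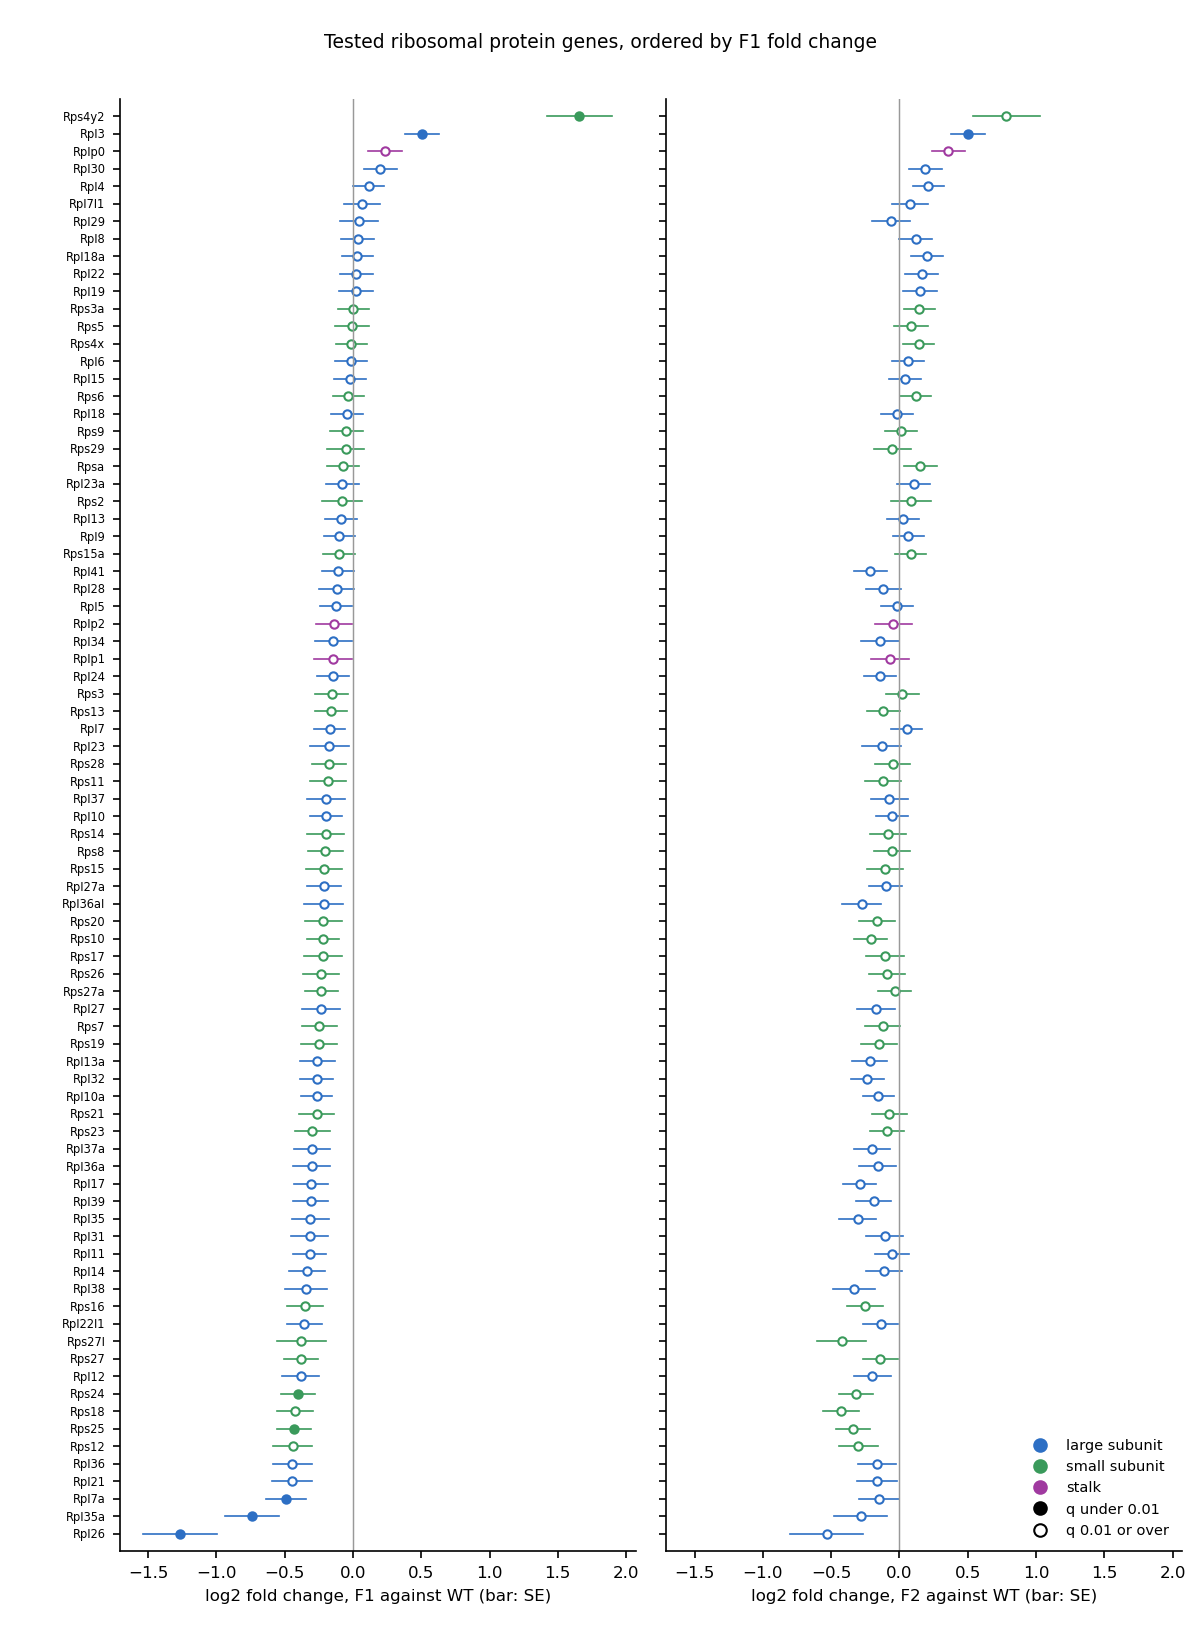
log2 fold change of each tested member in F1 (left) and F2 (right) against WT, with bars of 1 SE, in the order of the F1 value; filled points passed q under 0.01. In F1, 70 of 82 members lie below 0, and in F2, 57 do.

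The stalk, a flexible arm of the large subunit that calls elongation factors to the ribosome, gave values of both signs. Rplp0, its base (chr5:116009476-116013736), stood at 111 and 102 CPM in WT, 120 and 131 CPM in F1, and 145 and 128 CPM in F2. All F1 and F2 libraries were above WT. Its log2 fold change was 0.24 in F1 (q = 0.162) and 0.36 in F2 (q = 0.0219). The paired arms Rplp1 and Rplp2 had values on both sides of WT in F2 and, for Rplp1, in F1, with log2 fold changes of -0.14 and -0.14 in F1 and -0.069 and -0.044 in F2.

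Rps6, the small subunit protein that S6 kinases phosphorylate, stood at 105 and 106 CPM in WT, 105 and 100.4 CPM in F1, and 117 and 112 CPM in F2. It had a log2 fold change of -0.035 ± 0.11 in F1 (q = 0.878) and 0.12 in F2 (q = 0.511). Rpsa, which is also known as the laminin receptor, had 228 and 211 CPM in WT, 223 and 194 CPM in F1, and 241 and 248 CPM in F2. Its log2 fold changes were -0.073 in F1 and 0.15 in F2, neither past the threshold.

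Several members have a paralog among the listed genes. Rpl22l1 had log2 fold changes of -0.36 (q = 0.0340) in F1 and -0.14 in F2, and Rpl22 had 0.024 and 0.16. Rps27l and Rps27 had nearly equal values in F1, -0.38 for both, and -0.42 and -0.14 in F2. The pair Rpl36a and Rpl36al, with -0.30 and -0.21 in F1, and the pair Rpl7 and Rpl7l1, with -0.17 and 0.069, did not pass the test either. Rpl10, which joins the large subunit late in its assembly, had -0.20 in F1, and Rpl39 of the exit tunnel had -0.31. Differences within a pair were not tested.

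The share of each member's coding sequence that recurs elsewhere in the genome was measured. Untranslated regions were left out, and the share was not compared with the levels of the members. For the 81 tested members with a coding sequence, a median of 90.3% of all 50-base windows of that sequence occurred elsewhere in the genome without mismatch. All windows did so in 28 members, and under 25% did in 6. For Rpl26 the share was 87.4%, for Rpl7a 93.4%, for Rpl35a 82.4%, for Rpl3 95.7%, and for Rps4y2 18.0%. The median log2 fold change in F1 was -0.048 for the 13 members under 50%, -0.21 for the 40 members between 50% and 100% and -0.22 for the 28 members at 100%. In F2 these medians were 0.020, -0.10 and -0.11. The part of multiply aligned reads in these values was not tested.

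The listed genes that hold such copies were followed as well; this list was assembled after the members' values were seen. A copy had to share at least 50 windows with a member, in a place that lay at least 50% in exons of the copy and made up at least 25% of their length, and 419 such genes were listed and 142 tested. In F1, 6 of these were higher and 11 lower at q under 0.01, and in F2, 5 were higher and 7 lower. These counts of 142 lie near or below the shares of all tested genes, 3.77% higher and 8.54% lower in F1 and 3.86% and 8.10% in F2. Their median log2 fold change was -0.27 in F1 and -0.11 in F2. The copies named next were chosen after their values were seen.

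Gm15772, the copy of Rpl26 printed above, moved against its parent. It had 372 and 283 reads in WT, 1268 and 1786 in F1, and 717 and 674 in F2, without overlap between groups. It rose by 2.25 ± 0.17 on the log2 scale in F1 (q = 3.01e-33) and 1.31 in F2 (q = 2.08e-11), and the log2 difference between F2 and F1 was -0.94 (q = 1.06e-05), lost without F2 replicate 2 (q = 0.0145). The F1 library with the fewest Rpl26 reads, replicate 2, had the most on Gm15772. Added together, Rpl26 and Gm15772 came to 154 and 154 CPM in WT, 126 and 93.3 CPM in F1, and 118 and 133 CPM in F2. The log2 ratio of the summed means was -0.49 in F1 and -0.30 in F2, against -1.27 and -0.53 for Rpl26 alone.

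Gm5619, the copy of Rpl7a, rose from 7 and 9 reads in WT to 105 and 141 in F1 and 74 and 58 in F2. Its log2 fold change was 3.94 ± 0.45 in F1 (q = 7.49e-22) and 3.24 in F2 (q = 1.92e-13). Since its level stayed low, Rpl7a summed with its 5 tested copies had log2 ratios of -0.44 in F1 and -0.13 in F2, near those of Rpl7a alone. Rpsa-ps10 (chr3:149735554-149736584), a copy of Rpsa, had 326 and 272 reads in WT, 1176 and 1678 in F1, and 514 and 979 in F2. It rose by a log2 fold change of 2.28 in F1 (q = 3.91e-16) and 1.54 in F2 (q = 1.07e-07), while its parent did not pass the test.

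Other copies fell. Rpl19-ps12 (chrX:5648340-5648930) had 72 and 62 reads in WT, none in either F1 library, and 10 in each F2 library. Taking 3 reads over the group as the floor, it was at least 43.8-fold lower in F1 than in WT. In F2 its log2 fold change was -2.51 (q = 6.62e-09). Rps19-ps7 had 99 and 80 reads in WT, 13 and 5 in F1, and 29 and 29 in F2, with log2 fold changes of -3.26 in F1 and -1.40 in F2. The F2 call of Rps19-ps7 was lost without WT replicate 1 or either F2 library (q up to 0.0291). Their parents Rpl19 and Rps19 had log2 fold changes in F1 of 0.021 and -0.25, neither past the threshold. Differences in sequence between animals of an outbred strain, which can move reads from one copy to another, cannot be told apart from differences in transcription in these counts.

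**Figure D5:**
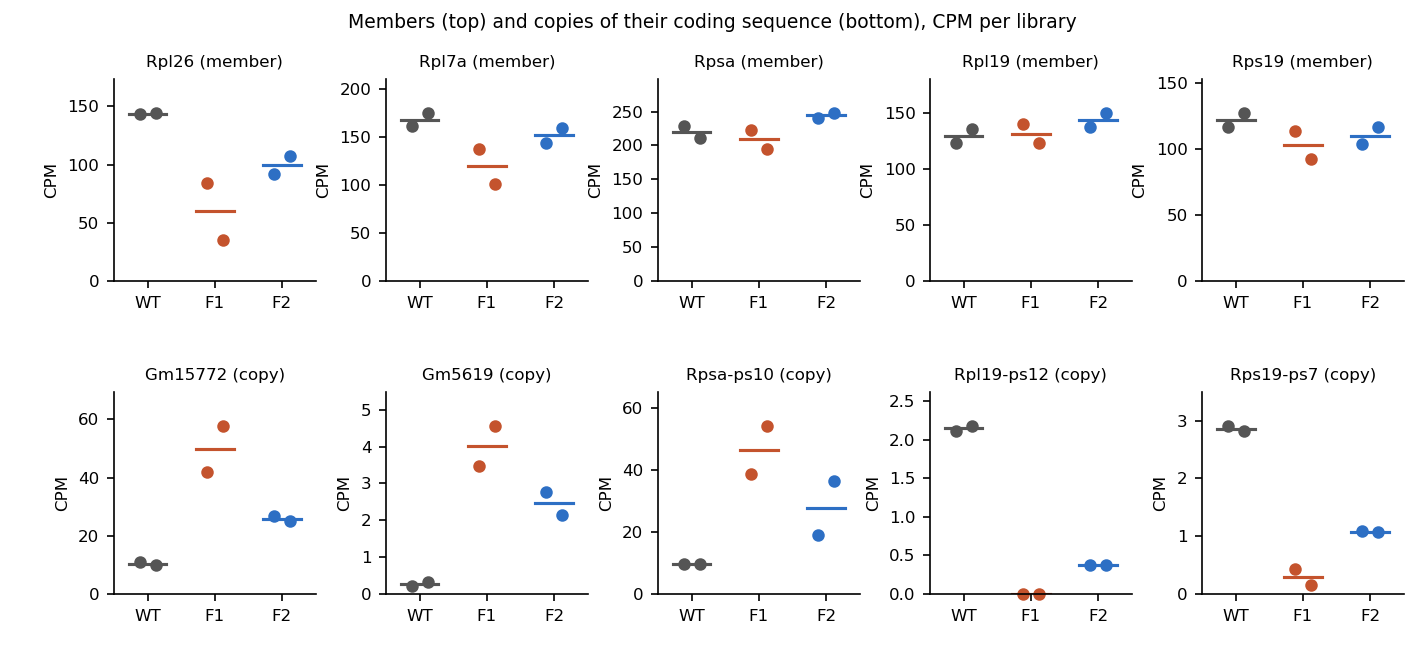
CPM of 5 members and of a copy of each in every library (points), with the group mean as a line; each axis starts at 0. Gm15772 rises from 10.5 CPM in WT to 49.8 in F1 while Rpl26 falls, and Rpl19-ps12 is at 0 in both F1 libraries.

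Start sites were compared for the 61 tested members with a RefSeq window of 250 bases before to 50 after the start. A run of at least 8 C or T bases within 10 bases of the start occurred in 29 of them (47.5%), against 17.4% of 11205 tested genes with a window and 16.1% of all 27025 genes with one. The letters CCGGAA, the core of sites for GABP and other ETS factors, occurred on either strand in 32 of the 61 windows (52.5%), against 24.5% of tested genes. AAGATGG, the core of YY1 sites, occurred in 10 (16.4%, against 6.78%), and TATAA, the core of the TATA box, in 17 (27.9%, against 14.2%). A match here is a match of letters only, and where a gene had several windows the one with the longest run was used. The median log2 fold change of members with the run was -0.26 in F1 and -0.14 in F2 (n = 29), and of those without it -0.19 and -0.083 (n = 32).

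Genes that act with the ribosome were counted from lists. For comparison, 3.77% of all tested genes were higher and 8.54% lower in F1, and 3.86% and 8.10% in F2. Fau and Gnb2l1, which encode ribosomal proteins under other names, had log2 fold changes between -0.060 and 0.058 and neither passed. None of the 76 tested mitochondrial ribosomal protein genes passed in either comparison, with medians of -0.0032 in F1 and -0.075 in F2. Of 24 other genes with TOP mRNAs or their partners, Gas5, a host of small nucleolar RNAs, was lower in F1 (-0.58, q = 3.88e-05) and F2 (-0.52, q = 3.05e-04). Snhg1, another such host, was lower in F1 (-0.70, q = 2.35e-04), and Eef2, the translocation factor, was higher in F2 (0.45, q = 0.00386). The Eef2 call was lost in 7 of 20 alternatives, among them those without either WT or either F2 library (q up to 0.0973). That of Gas5 was lost in F1 without F1 replicate 2 (q = 0.014) and in F2 without either WT or either F2 library (q up to 0.0297), and the F1 call of Snhg1 without WT replicate 2 (q = 0.0364). Among 34 factors of initiation and elongation without a known TOP tract, 2 were higher and 1 lower in F1 and none passed in F2. The 2 were Eif6, which keeps subunits apart (0.52), and Etf1, the termination factor (0.47), and the 1 was Eef2k, the kinase of Eef2 (-0.65). The Eif6 call was lost in 7 alternatives, among them those without WT replicate 2, F1 replicate 2 or either F2 library (q up to 0.152). The Etf1 call was lost in 6, among them those without either WT library or F1 replicate 2 (q up to 0.0969).

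Of 57 genes of ribosome assembly and RNA polymerase I, 5 were lower in F1, and 6 were lower and 1 higher in F2. Those of largest change were Taf1c of the polymerase I initiation complex (-0.80 in F1 and -0.79 in F2), Mdn1, which remodels large subunit precursors (-0.63 and -0.75), and Nop56 of the small nucleolar particles (-0.55 and -0.64). The gene that was higher in F2 was Nvl, another remodelling ATPase (0.61). Calls were lost without WT replicate 1 for Taf1c in both groups, Mdn1 in F1 and Nvl in F2, without F1 replicate 2 for Mdn1 in F1, without F2 replicate 2 for Taf1c and Nvl in F2, and without WT replicate 2 for Nvl (q up to 0.0619 for Nvl, 0.029 for Taf1c and 0.028 for Mdn1). Of 18 genes that carry mTOR signals to the ribosome, 4 were lower in F1 and 3 in F2. Rps6kb2, an S6 kinase, had 2878 and 1961 reads in WT, 972 and 707 in F1, and 750 and 713 in F2, with log2 fold changes of -1.48 (q = 1.87e-16) and -1.50 (q = 1.64e-16). Rps6kb1, the other S6 kinase, had -0.14 and -0.17, neither past the threshold. Tsc2 (-0.55 and -0.69) and Tsc1 (-0.40 and -0.40), the brake on mTOR, were lower in both. Tsc1 passed in 8 of 20 alternatives in F1 and 11 in F2, and its F1 call was lost without any of the 6 libraries (q up to 0.0917) and its F2 call without either WT or either F2 library (q up to 0.129). Tsc2 lost its F1 call without WT replicate 1 or either F1 library (q up to 0.102) and its F2 call without WT replicate 1 or F2 replicate 1 (q up to 0.0163). Each of these lists is to be read against the 3.77% of genes higher and 8.54% lower in F1, and the 3.86% higher and 8.10% lower in F2.

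Markers of other cells were counted in the same comparisons, where 3.77% of all tested genes were higher in F1 and 3.86% in F2. Of 12 oligodendrocyte markers, 3 were higher in F1 and 2 in F2, with a summed level of 1134 to 2048 CPM in WT, 2301 to 3045 in F1 and 1582 to 2977 in F2. Of 10 astrocyte markers, 1 was higher in F1 and 5 in F2, and the sum ran from 1400 to 1462 CPM in WT, 1661 to 2006 in F1 and 1852 to 2235 in F2. Of 10 microglia markers, 1 was higher in F1 and 6 in F2, with sums of 163 to 165 CPM in WT, 199 to 236 in F1 and 230 to 262 in F2. Of 10 endothelial and pericyte markers, 1 was higher in F1 and 3 in F2, with sums of 220 to 242, 259 to 324 and 294 to 321 CPM. Of 10 interneuron markers, 1 was higher in F1 and 3 in F2, with sums of 1103 to 1200, 1028 to 1379 and 1164 to 1274 CPM, and of 9 mossy cell and CA field markers, 1 was higher and 1 lower in each, with sums of 534 to 553, 501 to 825 and 461 to 483 CPM. Of 12 granule neuron markers, Plk5 and Trpc6 were lower in both F1 and F2, and none was higher. At an unadjusted p under 0.05 by the exact test, 1 was higher and 3 lower in F1, and 6 higher and 2 lower in F2. The shares of all tested genes at this threshold were 14.4% higher and 18.2% lower in F1, and 14.6% and 17.8% in F2. The median log2 fold change of the 12 was -0.10 in F1 and 0.14 in F2. Their sums were 1632 to 1681 CPM in WT, 1420 to 1660 in F1 and 1783 to 1876 in F2. The Plk5 call was lost without WT replicate 1 in F1 (q = 0.0374) and in 7 of 20 alternatives in F2 (q up to 0.22), and the F2 call of Trpc6 without WT replicate 1 or F2 replicate 2 (q up to 0.033). Median log2 fold changes in F1 and F2 were 0.80 and 0.59 for oligodendrocyte, 0.32 and 0.48 for astrocyte and 0.35 and 0.51 for microglia markers. They were 0.41 and 0.46 for endothelial and pericyte, 0.074 and 0.12 for interneuron and 0.41 and -0.028 for mossy cell and CA field markers. For all tested genes they were 0.0094 and -0.00035. By the quasi-likelihood test, no oligodendrocyte marker was higher in F1 or F2. In the astrocyte, microglia and endothelial and pericyte lists, it called 0 markers higher in F1 and 1 per list in F2. Among interneuron markers it called 1 higher in F1 and 2 in F2. The F2 calls of Cx3cr1 (microglia) and Vtn (endothelial and pericyte) were each lost in 10 of 20 alternatives. All markers of these lists had reads in every library, and their part in the members' values was not tested. In bulk tissue, fewer cells of a type and less RNA per cell cannot be told apart.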

How the data were processed

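Messenger RNA from microdissected ventral granule cell layer was sequenced by the authors as single-end reads of 50 bases. Reads were aligned to mm9 with TopHat, without a search for new junctions. The submitters' processing notes give TopHat2 2.0.2 and Bowtie 1.0.0, and the paper's methods name a later TopHat version. The deposited values are raw read counts, which HTSeq tallied for each gene symbol in intersection-strict mode; reads aligned to several places were left out, and the use of strand in counting is not given in the sources used here. The tallies of such reads at the foot of each file were kept out of library sizes.

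Counts were filtered with filterByExpr, scaled by TMM and tested in edgeR 4.0.16 (R 4.3.3) with its exact test, using tagwise dispersion, shrunk towards the common value, over the 6 libraries and Benjamini-Hochberg adjustment over all 17421 tested genes at q under 0.01. The authors named edgeR but not its function, and gave 0.05 as the threshold in their methods and 0.01 in their results. At q under 0.01 the present fit called 2144 genes in F1 and 2084 in F2, fewer than the paper reports. CPM used the TMM library sizes, and SE came from the mean counts and tagwise dispersion. Gene positions are from GENCODE vM1 (mm9), and start sites from RefSeq. Replicates were not duplicates, with a chi-square per degree of freedom of 19.2 or more in each group. The procedure was tested on simulated data.

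Members, lists and tests were chosen with earlier results of these data known. Members named in the text are those past the threshold, the stalk genes, Rpsa and Rps6, fixed paralog pairs, the 3 highest and 3 lowest levels and those not tested; up to 3 of largest change were named per list of other genes. A gene of these lists is not reported here.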

Additional observations from a re-analysis of the deposited data

Results flagged for a closer look

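Some members and copies differed from WT in opposite directions in F1 and F2, or differed between F1 and F2. Rpl9 and Rps15a were below both WT libraries in both F1 libraries and above both in both F2 libraries. Their log2 differences between F2 and F1 were 0.17 and 0.19 (q = 0.804 and 0.725 by the exact test). The copy Gm5093 of Rpl11 was above WT in F1 and below it in F2 (F2 against F1 -0.75), and the copy Rpl36-ps3 of Rpl36 was below WT in F1 and above it in F2 (1.14). The difference itself was not tested for these 4 beyond the fit over all genes, in which none passed q under 0.01. With 2 libraries a group, separation from WT was common. Both F1 libraries lay below both WT libraries in 30.6% of all tested genes and above them in 29.8%. For F2 these shares were 32% and 31%. The share of all genes with opposite directions in F1 and F2 was not counted.

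By the exact test of F2 against F1, 3 copies differed. Gm15772 of Rpl26 was lower in F2 (-0.94, q = 1.06e-05), and Rps19-ps7 of Rps19 was higher (1.86, q = 0.00537). Rpl19-ps12 of Rpl19 was higher in F2 (6.44, q = 7.44e-04); as both F1 libraries had no read, this fitted value depends on the prior count and is not a bound. By the quasi-likelihood test none of the 3 passed (q = 0.0274 for Gm15772, 0.136 for Rps19-ps7 and 0.0435 for Rpl19-ps12). Leaving out 1 library at a time, the call was lost without F2 replicate 2 for Gm15772 (q = 0.0145), without either F1 library or F2 replicate 1 for Rpl19-ps12 (q up to 0.0613), and without any library but F1 replicate 1 for Rps19-ps7 (q up to 0.184).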

How the results depend on the processing

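With the exact test and q under 0.01, 7 members differed in F1, 1 in F2, 0 between F2 and F1, and 1 in both. No call changed direction under any alternative; the median difference between F2 and F1, 0.11, was -0.0091 without F1 replicate 2. Fewer members were called by the quasi-likelihood test (1, 0, 0 and 0 in the same order) and, in F1, by DESeq2 (4), without the filter (4) and with dispersion from the 2 groups compared (4, and in F2 also 4, with 3 in both). More were called with total counts as the scale (11, 2, 0 and 2), with GC and length offsets (8, 4, 1 and 3) and at q under 0.05 (16, 6, 1 and 5). The likelihood-ratio test gave 7 in F1, 2 in F2 and 2 in both. Leaving out 1 library at a time, the counts ranged from 2 to 14 in F1, from 0 to 4 in F2, from 0 to 2 between F2 and F1 and from 0 to 4 in both. The median of the members lay between -0.32 and -0.066 for F1 under this, and for F2 between -0.15 and -0.0058. No scaling moved the median of all tested genes by over 0.1. Without mitochondrial genes in the total, members made up 1.26% of counts in WT and 1.21% in F2. Summed over all lists, there were 19 calls in F1 and 20 in F2 by the quasi-likelihood test, against 30 and 41 by the exact test. A gene on several lists, such as Rps6kb2 or Eef2k, was counted in each. The cause of these differences was not tested.

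Replicate numbers 1 and 2 recur in each group. Over all tested genes, differences between replicates correlated at -0.0086 (WT and F1), -0.090 (WT and F2) and -0.23 (F1 and F2), so equal numbers did not pair the libraries there. Over the members alone, the correlations were -0.20, 0.19 and -0.61 in the same order. The members' replicate differences in F1 and F2 were thus related in the crossed order. A source shared between libraries was not tested. With the replicate block, the quasi-likelihood test called 2 members in F1 and 0 in F2 or both, the likelihood-ratio test called 4, 1 and 1 (F1, F2 and both), and the latter with GC and length offsets 5, 2, 1 and 2. With the F2 numbers crossed, a pairing chosen after seeing the data, it called 12, 3, 1 and 3.

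Depth was not a limit for most members. It was for Rpl10l, Rpl39l and Rpl3l, and for the copies with few reads.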
